A study of Mus musculus with 4 samples.

Results

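Conjugating enzymes of mouse liver were compared between fasted mice and mice that could eat. The genes are all protein-coding genes whose symbol starts with Ugt1a, Ugt2, Ugt3, Sult, Gsta, Gstm, Gstp, Gstt, Gstk, Gsto or Gstz. These are 63 of the 27179 genes counted, with 20 Ugt, 21 Sult and 22 Gst genes. The rule uses symbols and no measured value, but it was set with earlier results of these data known. A further gene of that description, Ugt1a8, was not analysed here. Total RNA of liver was sequenced in 2 libraries titled as fasted and 2 as non-fasted. All are labelled as from male wild type C57BL/6 mice with no transgene or drug. The non-fasted libraries also hold placental and female transcripts, described below, which male liver alone does not account for. Fasted mice went without food overnight but had water, and non-fasted mice could eat and drink freely. No source gives the age of the mice or says which animal, or how many, a library came from, so the p-values below reflect only how far libraries of one title differ, and that spread may be purely technical. The sample titles give the groups, whereas another label field reads fasted for all 4 libraries.

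UGT enzymes transfer glucuronic acid from UDP-glucuronic acid, SULT enzymes transfer sulfate from PAPS, and GST enzymes add glutathione to reactive compounds, and each of these steps makes a compound easier to excrete into bile or urine. Liver is the main site of all 3 reactions. Acetaminophen (APAP), whose liver toxicity the study addresses, is cleared mostly by glucuronidation and sulfation, while its oxidised product NAPQI is bound by glutathione.

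The sequences of some of these genes are so alike that their reads are hard to assign, which bears on every value below. The Ugt1a genes are the clearest case, since each has a first exon of its own and all share the exons that follow. Across the 8 Ugt1a genes with counts, coding lengths were 1584 to 1605 bases, of which the last 737 were identical, so that only the 847 to 868 bases before them can tell the genes apart. The first 60 coding bases of 3 genes that glucuronidate APAP or bilirubin, and the last 60 bases that all 8 share, are shown in lower case throughout, from the GENCODE annotation of GRCm38.
Ugt1a1: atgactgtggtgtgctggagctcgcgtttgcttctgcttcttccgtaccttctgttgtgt
Ugt1a6a: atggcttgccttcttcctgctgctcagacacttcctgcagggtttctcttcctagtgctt
Ugt1a9: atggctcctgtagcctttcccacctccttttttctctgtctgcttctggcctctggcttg
Ugt1a shared end: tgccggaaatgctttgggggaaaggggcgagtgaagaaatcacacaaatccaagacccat
Gstp1 and Gstp2 are 2 complete genes that differ at 12 of 630 coding bases (98.1% identity). Their first 60 coding bases hold the densest differences, in capitals.
Gstp1: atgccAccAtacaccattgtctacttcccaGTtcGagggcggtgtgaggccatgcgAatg
Gstp2: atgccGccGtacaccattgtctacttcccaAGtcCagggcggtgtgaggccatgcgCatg
Ugt1a6a and Ugt1a6b were 98.4% identical (26 of 1593 bases), Ugt2b38 and Ugt2b5 97.0%, Ugt2b37 and Ugt2b5 94.7%, and Ugt3a1 and Ugt3a2 93.2%. Measured as stretches of 50 bases that also occur in another gene, 21 of the 63 members shared over 20% of their exon sequence. These ran from 97.0% in Ugt2a1 to 25.5% in Sult2a4, with 90.5% in Gsta1, 79.8% in Ugt1a6b and 33.7% in Gstp1. None of the 50-base stretches of Sult1e1, Gsto1, Gsto2, Gstt1, Gstm5 or Ugt2b1 occurred elsewhere. How the deposited counts treat a read that fits several genes is not given by any source used here, so values of the near-identical genes are uncertain.

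The libraries differed in far more than food. Totals were 13541405 and 13528015 counts in the fasted libraries and 36975921 and 36943535 in the non-fasted libraries. Of 16 markers of placental trophoblast, Synb had no count in any library and the other 15 had 0 to 3 counts in each fasted library, whereas in the non-fasted libraries the list summed to 2491876 and 2511878 counts, or 6.74% and 6.80% of all counts. Summed counts of 8 decidual genes were 308 and 295 against 95227 and 96780 (7 lower and Bmp2 higher in the fasted libraries under both scalings described next), those of 6 cholangiocyte genes 577 and 497 against 15247 and 15150 (all 6 lower), and those of 6 stellate cell genes 2913 and 2655 against 99925 and 99777. Of the stellate cell genes 3 were higher and 3 lower under the first scaling, and 1 and 5 under the second. Xist, the transcript of the inactive X chromosome of female cells, was at 2 and 1 against 25772 and 26316 counts, although all 4 libraries are labelled male, and 4 Y-linked genes summed to 2454 and 2361 against 1967 and 1967 counts, so that male RNA was present in all 4. Summed counts of 7 genes of yolk sac and fetal liver were 30 and 45 against 47756 and 48156 (all 4 tested genes lower under both scalings). Summed counts of 14 genes of hepatocyte plasma proteins were much closer, at 1525963 and 1524255 against 1729803 and 1717183, so liver was present in all 4. Whether tissue other than adult liver gave part of these hepatocyte counts was not tested. With placental RNA in both non-fasted libraries and neither fasted one, food and placental RNA cannot be told apart by the groups. In bulk RNA, fewer cells of a type and less RNA per cell cannot be told apart either.

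Because of this, 2 scalings are given throughout. Median-of-ratios scaling, the one DESeq2 uses, takes most genes as unchanged and puts the 14 hepatocyte markers at a median fasted to non-fasted log2 fold change of 1.75. Hepatocyte-marker scaling instead sets each library by the summed counts of those 14 genes, which shifts log2 fold changes by a median of -1.78 and shows how a gene moved relative to them. The markers themselves then spread from -0.17 to 0.37. Neither scaling was shown to be the right one.

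Most of the abundant conjugating enzymes had similar deposited counts in both groups, while the library totals differed 2.73-fold. Of the 38 members with a mean of at least 100 counts over the 4 libraries, 26 differed by less than 1.5-fold between the groups in counts before scaling, 33 by less than 2-fold, and the median ratio of fasted to non-fasted counts was 0.951 (range 0.000342 in Sult1e1 to 1.52 in Gsta2). The 5 that differed by more than 2-fold, Sult1e1, Gstm5, Gstm2, Gstm3 and Ugt1a5, were all lower in the fasted libraries. All 63 members together took 1.342% and 1.338% of the fasted libraries and 0.5442% and 0.5411% of the non-fasted libraries (Wilson 95% intervals 1.336 to 1.348% in fasted library 1 and 0.5418 to 0.5465% in non-fasted library 1, counting error only). Per 10000 hepatocyte-marker counts they had 1191 and 1187 counts when fasted against 1163 and 1164 when not. The groups did not overlap on either measure, but the second differed by a ratio of only 1.02.

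**Figure D1:**
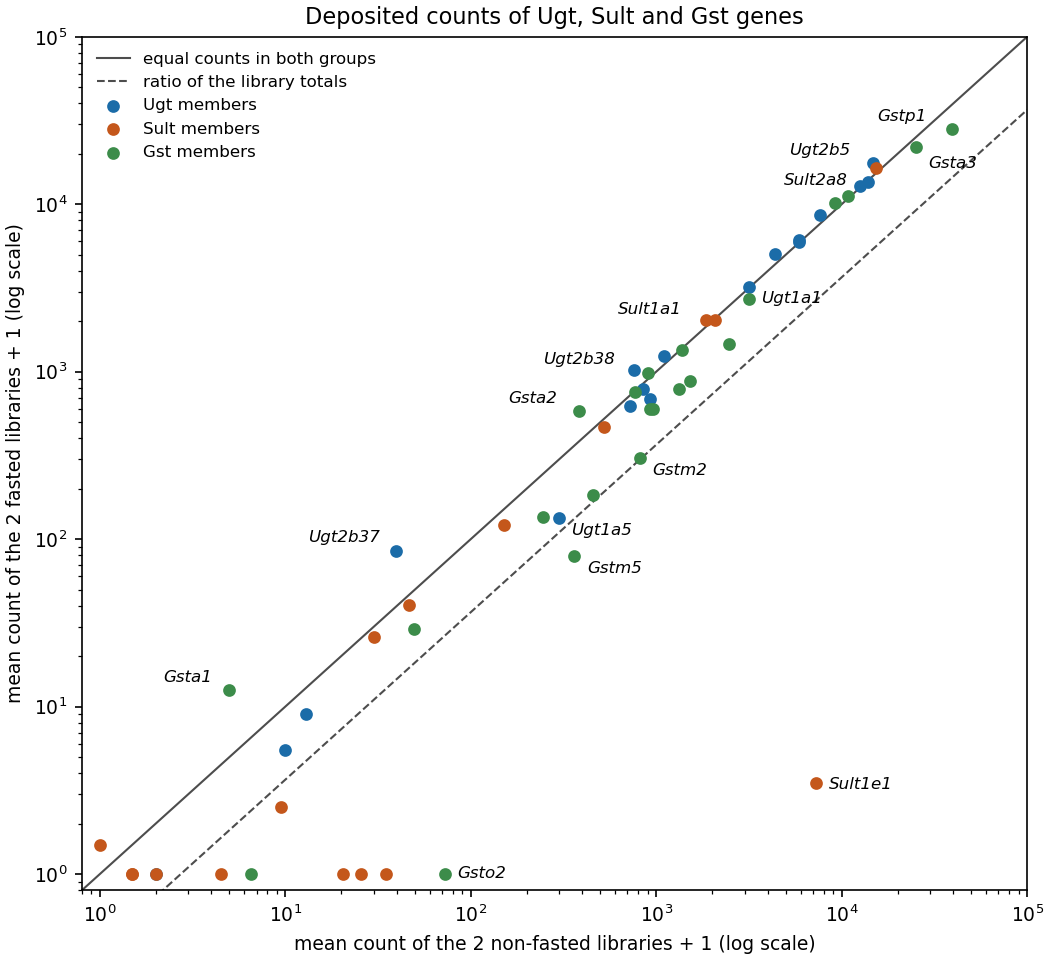
Mean deposited counts plus 1 of each member in the 2 fasted libraries (vertical, log scale) against the 2 non-fasted libraries (horizontal, log scale), coloured by family, for the 57 members with any count. Most points lie near the solid line of equal counts, Gstm2, Gstm5 and Ugt1a5 lie near or below the dashed line drawn at the ratio of the library totals, and Sult1e1 lies far below both.

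After a filter on low counts, 47 members were tested with edgeR's quasi-likelihood test among 15470 genes. Under median-of-ratios scaling 42 were higher in the fasted libraries, against 37.2% of all tested genes, 4 were lower, against 45% of all, and 1, Gstm5, did not pass (Benjamini-Hochberg adjusted p = 0.0756). The median log2 fold change of the tested members was 1.76 and that of all tested genes -0.13. The 4 lower members were Sult1e1, Sult2b1, Sult6b1 and Gsto2, each with 0 to 3 counts in every fasted library. Under hepatocyte-marker scaling 21 members were higher, against 4.56% of all tested genes, 17 were lower, against 90.2%, and 9 did not pass, with a median of -0.02 against -1.91 over all tested genes. The spread between libraries of a group was little above counting error, so small shifts pass this test. Lack of overlap was likewise common: in counts per hepatocyte-marker count the groups did not overlap in 41 of the 47 tested members. With the coefficient of variation between libraries set to 0.2 under this scaling, 4 members stayed higher (Gsta1, Gsta2, Ugt2b37 and Ugt2b38, against 1.62% of all genes) and 10 stayed lower (against 84.4%). Scaled to total counts, 22.9% of all genes were higher and 62.7% lower.

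Set against the range of the 14 hepatocyte markers themselves, 23 of the 47 tested members lay inside it, 6 above it and 18 below it. Of all tested genes 5.46% lay inside, 3.24% above and 91.3% below. The 6 above were Ugt2a3, Ugt2b5, Ugt2b37, Ugt2b38, Gsta1 and Gsta2. Below it lay every Gstm gene but Gstm1, all 3 Gstp genes, both Gsto genes, Gstt3, 3 Ugt1a genes (Ugt1a5, Ugt1a9 and Ugt1a10) and the sulfotransferases Sult1e1, Sult2b1 and Sult6b1.

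**Figure D2:**
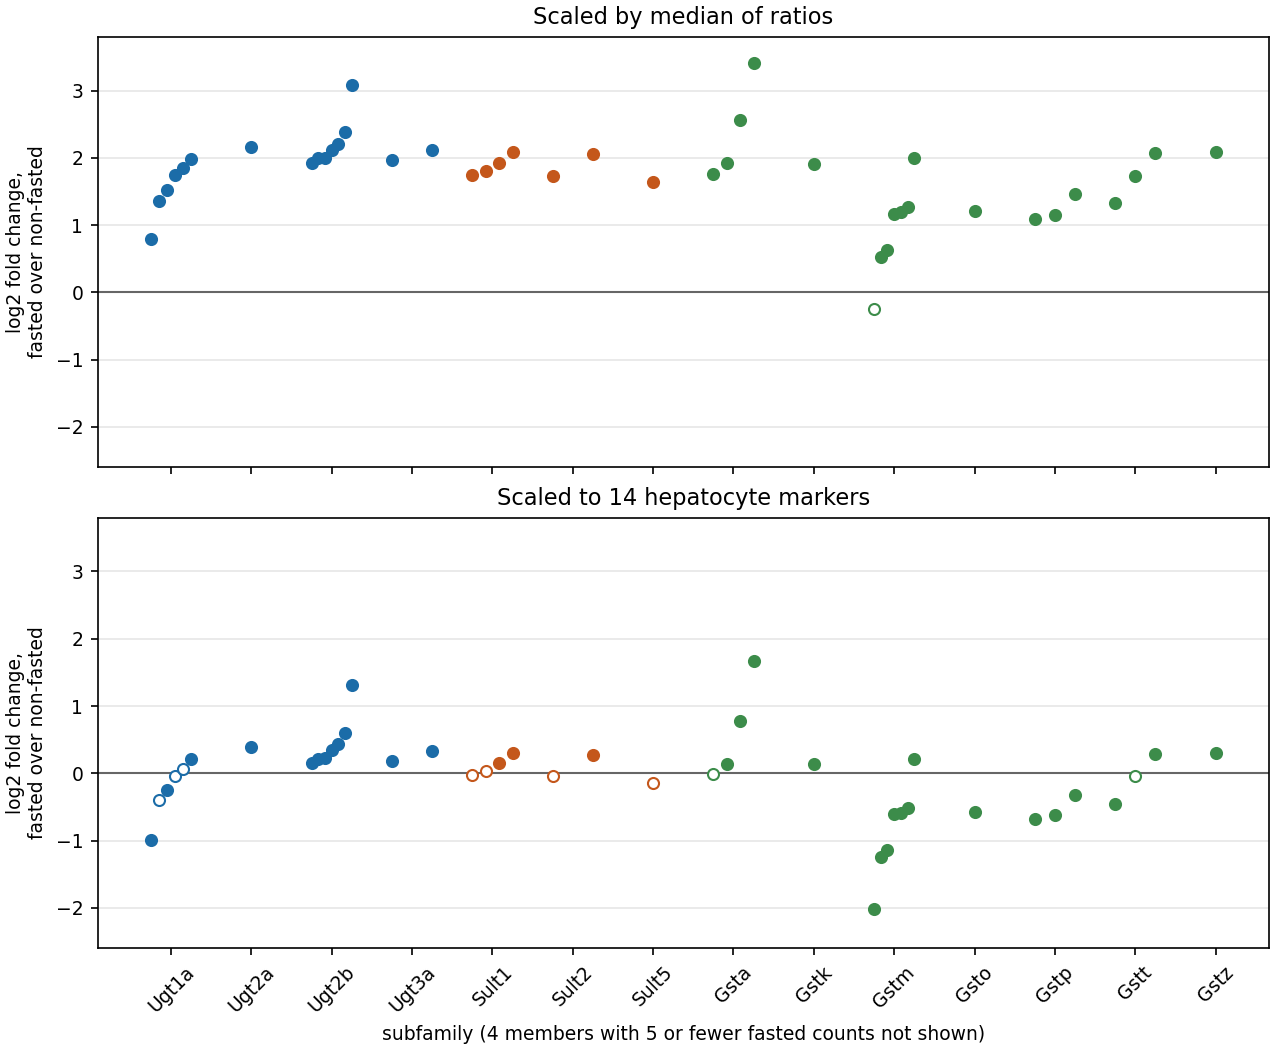
Tested members with more than 5 fasted counts by subfamily, with log2 fold changes (fasted over non-fasted) under median-of-ratios (top) and hepatocyte-marker scaling (bottom). Filled points passed the test at an adjusted p of 0.05 and open points did not. Points move down by about the median shift of -1.78 from the top to the bottom panel. Sult1e1, Gsto2, Sult2b1 and Sult6b1 are not drawn, and the last 3 have no fasted count, so their fitted values depend on a prior count. In the bottom panel every Ugt2b gene lies above 0, and every Gstp gene and every Gstm gene but Gstm1 lies below it.

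UDP-glucuronosyltransferases were the family with the largest counts per hepatocyte-marker count in the fasted libraries relative to the non-fasted ones. Ugt genes summed to 509.9 and 506.8 counts per 10000 hepatocyte-marker counts when fasted, compared with 423.4 and 420.6 when not, a ratio of 1.205 with no overlap. Of the 20 Ugt genes 16 were tested, and all 16 were higher under median-of-ratios scaling (median log2 fold change 1.99), against 37.2% of all tested genes. Under hepatocyte-marker scaling 11 were higher, 2 lower and 3 not past the test (median 0.21). Of all tested genes 4.56% were higher and 90.2% lower under that scaling (median -1.91).

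Ugt2b genes, which glucuronidate steroids, bile acids and many drugs, held most of the family. All 7 were higher under both scalings, by 1.93 to 3.08 and by 0.15 to 1.31 on the log2 scale. Of all tested genes 37.2% and 4.56% were higher under these scalings. Ugt2b5 (Entrez gene 22238), the most abundant Ugt gene per exon length in both groups, had 17700 and 17352 counts when fasted against 14781 and 14600 when not. Every fasted library exceeded every non-fasted one even before scaling, with a log2 fold change of 2.21 ± 0.02 (SE, adjusted p = 6.18e-13) under median of ratios and of 0.43 ± 0.02 relative to hepatocyte markers (adjusted p = 4.25e-12, but 0.152 at a coefficient of variation of 0.2). Its close paralog Ugt2b38 had 1056 and 991 against 750 and 773 counts (log2 fold change 2.38 and, relative to hepatocyte markers, 0.60). Ugt2b37 had only 73 and 96 against 38 and 39 counts, and its log2 fold change of 3.08 ± 0.21 (adjusted p = 8.3e-07), or 1.31 ± 0.21 relative to hepatocyte markers (adjusted p = 2.26e-05), exceeded that of every other tested Ugt gene. All 3 of these genes were thus high in the fasted libraries without overlap, and they share 94.1% to 97.0% of their coding bases with each other.

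The other abundant Ugt2b genes stayed close to the hepatocyte markers. Ugt2b1, a main glucuronosyltransferase for xenobiotics in mouse liver, had 13727 and 13582 counts when fasted against 13970 and 13782 when not. Ugt2b36 had 12844 and 13001 against 12643 and 12363, and Ugt2b35 had 6102 and 6075 against 5918 and 5923. In these 3 genes the ratio of fasted to non-fasted counts was 0.984 to 1.03 before scaling, and their log2 fold changes were 1.93 to 2.00 under median of ratios and 0.15 to 0.22 relative to hepatocyte markers, within the range of the markers. Ugt2b34 was at 2.12 and 0.35.

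Among the Ugt1a genes the values diverged. Ugt1a1, the bilirubin transferase, had 3199 and 3245 counts when fasted against 3160 and 3142 when not, with log2 fold changes of 1.99 ± 0.03 (adjusted p = 1.85e-11) under median of ratios and 0.21 ± 0.03 relative to hepatocyte markers (adjusted p = 6.65e-06). Ugt1a6a, whose product glucuronidates planar phenols including APAP, had 611 and 632 against 716 and 723 counts. Its log2 fold change was 1.74 ± 0.05 under median of ratios (adjusted p = 1.12e-09) and -0.03 ± 0.05 relative to hepatocyte markers (adjusted p = 0.541). The fasted libraries were thus the lower ones in counts and level with the non-fasted ones once set against the hepatocyte markers. Ugt1a6b, nearly identical to it, had 807 and 774 against 868 and 834 counts (1.85 and 0.07, the second not past the test).

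Ugt1a9 and Ugt1a5 were on the low side of the family. Ugt1a9, another phenol transferase, had 677 and 688 counts when fasted against 899 and 942 when not, a log2 fold change of 1.52 ± 0.05 (adjusted p = 2.54e-09) that became -0.26 ± 0.05 relative to hepatocyte markers (adjusted p = 7.83e-05, and 0.41 at a coefficient of variation of 0.2). Ugt1a5 had 135 and 130 against 287 and 307 counts, and its log2 fold change of 0.79 ± 0.10 under median of ratios, the smallest of any tested Ugt gene, became -0.99 ± 0.10 relative to hepatocyte markers. In both genes every fasted library was below every non-fasted one before scaling. Ugt1a10 had 6 to 18 counts per library, at 1.35 (adjusted p = 0.0441) under median of ratios and -0.40 (adjusted p = 0.427) relative to hepatocyte markers. Its call under median of ratios held with TMM and upper quartile scaling and limma-voom. It was lost with DESeq2 (adjusted p = 0.145), without the filter on low counts (0.195), with total-count scaling (0.161), with a minimum fold of 2 and at a coefficient of variation of 0.4. Without fasted library 1 or 2 its log2 fold change was 1.56 or 1.19.

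Ugt2a3, the Ugt2a gene of liver, had 5033 and 5094 counts when fasted against 4420 and 4335 when not (log2 fold change 2.16 ± 0.03 under median of ratios and 0.39 ± 0.03 relative to hepatocyte markers). The fasted libraries were higher without overlap. Ugt3a1 and Ugt3a2, which transfer other sugars than glucuronic acid, had 1214 and 1250 against 1145 and 1056 counts, and 5979 and 5855 against 5944 and 5829. By hepatocyte markers they were at 0.34 and 0.18, inside the range of the markers. Ugt2a1 and Ugt2a2, which are known from olfactory tissue, had no count in any library, and Ugt1a2 and Ugt1a7c had too few for the test. Only 30 exon bases of Ugt2a1 and 140 of Ugt2a2 are not shared with an overlapping gene on the same strand. The handling of shared reads is not given, so the lack of counts does not show that these 2 genes were silent.

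Per kilobase of exon sequence, counting for Ugt1a genes only the bases that they do not share, Ugt2b5 led the family with a mean of 9432 counts in the fasted and 7906 in the non-fasted libraries. Ugt2b36 (6276 and 6072), Ugt2b1 (5307 and 5392), Ugt1a1 (3529 and 3451) and Ugt2a3 (2392 and 2068) followed in the same order in both groups. Ugt1a6b (842.8 and 907.2) and Ugt1a9 (776.5 and 1048) exchanged ranks between the groups. If reads of the shared end were also assigned to single Ugt1a genes, these per-length levels are too high.

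Sulfotransferases showed the widest contrast of the 3 families, and it came from a single gene. Sult1e1, the estrogen sulfotransferase, which is also known from placenta, had 3 and 2 counts when fasted against 7329 and 7291 when not. Scaled under median of ratios, the non-fasted level was 769 times the fasted one (95% counting interval 329 to 2370, counting error only), and the call held at every setting tried. The groups stood wholly apart, and in the non-fasted libraries Sult1e1 was the highest Sult gene per exon length (mean 5886 counts per kilobase, against 4645 of Sult2a8). The trophoblast markers, at 0 to 3 counts in each fasted library, moved with it, and their part in the result was not tested.

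The abundant Sult genes of liver stayed near the hepatocyte markers. Sult2a8, which sulfates bile acids in mouse liver, had 16300 and 16453 counts when fasted against 15231 and 15276 when not, a log2 fold change of 2.06 ± 0.02 (adjusted p = 6.76e-13), or 0.28 ± 0.02 relative to hepatocyte markers (adjusted p = 1.02e-09). Sult1a1, the phenol sulfotransferase that sulfates APAP, had 2028 and 2017 against 1839 and 1850 counts, a log2 fold change of 2.09 ± 0.03 (adjusted p = 1.84e-11), or 0.31 ± 0.03 relative to hepatocyte markers (adjusted p = 1.62e-07). In both genes the fasted libraries were slightly but fully above the non-fasted ones before scaling. At a coefficient of variation of 0.2 neither difference relative to hepatocyte markers passed the test (adjusted p = 0.359 and 0.311), and both genes lay inside the range of the markers.

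Sult1d1, which sulfates catecholamines in rodents, had 2024 and 2056 against 2071 and 2088 counts (log2 fold change 1.93 and, relative to hepatocyte markers, 0.15). Sult5a1 had 111 and 131 against 169 and 132 counts, and its log2 fold change of 1.64 ± 0.16 under median of ratios was -0.14 ± 0.15 relative to hepatocyte markers (adjusted p = 0.372). Its higher fasted and lower non-fasted library were 1 count apart. Sult1b1, a thyroid hormone sulfotransferase, Sult1c2 and Sult2a7 were at 1.80, 1.75 and 1.73 under median of ratios and at 0.03, -0.03 and -0.04 relative to hepatocyte markers, none of these 3 past the test.

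The other Sult genes were absent or nearly so in the fasted libraries. Sult2b1, the cholesterol sulfotransferase of skin, had 0 and 0 counts when fasted against 32 and 36 when not, and was at least 5.96-fold lower in the fasted group under median of ratios (20.1-fold relative to hepatocyte markers), taking 3 counts in a group as the floor. Sult6b1 had 0 and 0 against 29 and 20 counts (at least 4.29-fold and 14.5-fold lower). Sult4a1, the sulfotransferase-like gene of brain, had 0 and 0 against 13 and 26 counts, Sult6b2 had 0 and 3 against 7 and 10, and neither was tested. Sult2a1, the classic hydroxysteroid sulfotransferase, which female mouse liver expresses far more than male liver, had 1 count in all, and Sult1c1, Sult2a2, Sult2a3 and Sult3a1 had 10 or fewer. Sult2a4, Sult2a5, Sult2a6 and Sult3a2 had none, which in the fasted libraries allows a share of up to 2.22e-05% of counts each.

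**Figure D3:**
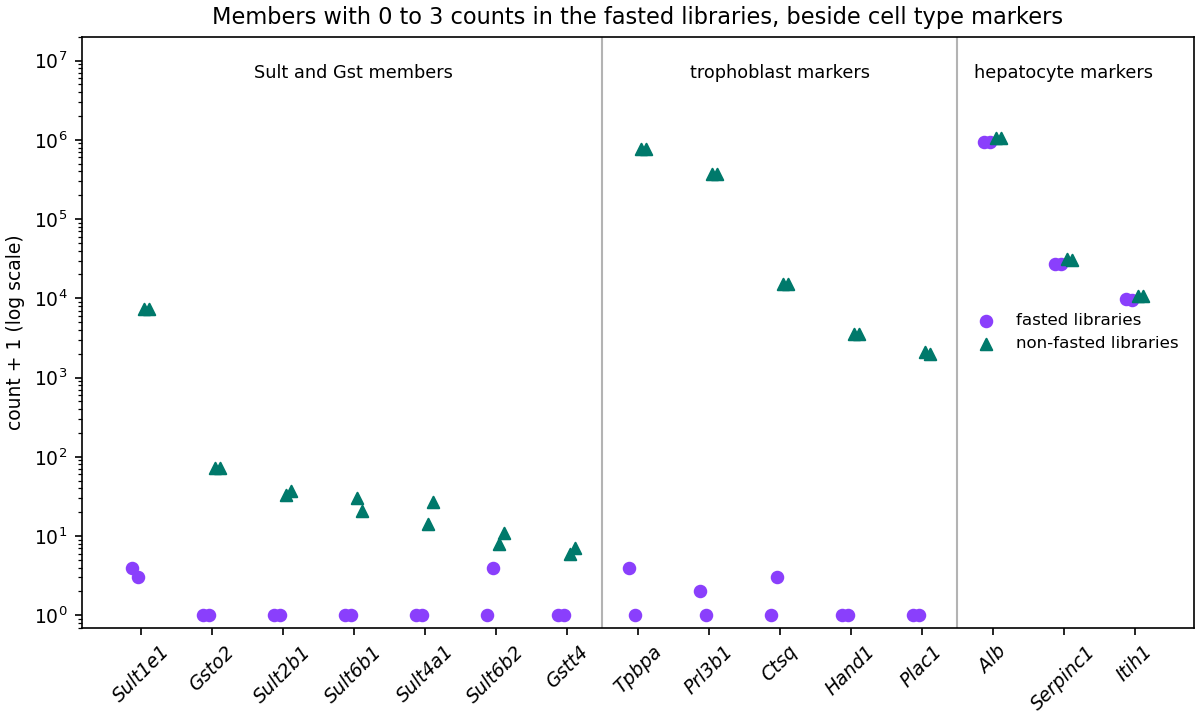
Counts plus 1 (log scale) in the 2 fasted (circles) and 2 non-fasted libraries (triangles) of the 7 Sult and Gst members with 0 to 3 counts in each fasted library and over 10 in the non-fasted libraries together, beside 5 trophoblast and 3 hepatocyte markers. Sult1e1 reaches 7329 and 7291 counts without fasting and 3 and 2 with it, 5 members are at 5 to 72 against 0, Sult6b2 is at 7 and 10 against 0 and 3, and the hepatocyte markers are nearly level.

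Glutathione transferases split by class. Gst genes summed to 543.0 and 541.3 counts per 10000 hepatocyte-marker counts when fasted, compared with 581.8 and 584.4 when not, a ratio of 0.930 without overlap. Of 21 tested genes, 19 were higher, 1 lower and 1 not past the test under median of ratios (median log2 fold change 1.324), and 7 were higher, 12 lower and 2 not past the test relative to hepatocyte markers (median -0.45). Of all tested genes 37.2% were higher and 45% lower under median of ratios. Relative to hepatocyte markers 4.56% of all were higher and 90.2% lower (median -1.91), so the Gst genes were lower less often than genes at large.

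Gstp1, the pi-class enzyme that binds NAPQI and by far the most abundant Gst gene per exon length, had 28125 and 27949 counts when fasted against 39328 and 39724 when not. By median of ratios it was at 54541 ± 150 normalized counts (SD, n = 2) when fasted against 20210 ± 175 (SD, n = 2) when not, a log2 fold change of 1.46 ± 0.01 (SE, adjusted p = 3.63e-14). By hepatocyte markers its log2 fold change was -0.32 ± 0.01 (adjusted p = 2.53e-13, and 0.292 at a coefficient of variation of 0.2). The fasted libraries held fewer Gstp1 counts but a larger share of all counts, without overlap either way. Gstp2, its near-identical neighbour, had 27 and 29 against 45 and 52 counts, and Gstp3 had 131 and 138 against 235 and 254. All 3 pi-class genes were higher under median of ratios (1.09 to 1.46) and lower relative to hepatocyte markers (-0.69 to -0.32). Of all tested genes 37.2% were higher on the first measure and 90.2% lower on the second. An annotated pseudogene, Gstp-ps, held 4256 and 4203 against 4246 and 4200 counts, and whether these are reads of Gstp1 was not tested.

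The alpha-class genes differed among themselves. Gsta3, the main alpha-class gene of mouse liver and the enzyme that detoxifies aflatoxin epoxide, had 21909 and 21922 counts when fasted against 25141 and 24957 when not, with a log2 fold change of 1.76 ± 0.01 (adjusted p = 8.21e-14) under median of ratios and -0.02 ± 0.01 relative to hepatocyte markers (adjusted p = 0.256). It was lower in counts in both fasted libraries and level with the hepatocyte markers. Gsta2 had 583 and 574 against 387 and 374 counts (2.56 ± 0.05 under median of ratios and 0.78 ± 0.06 relative to hepatocyte markers, adjusted p = 2.9e-09 for the second). Gsta1, an NRF2-inducible paralog, had 10 and 13 against 5 and 3 counts, and its log2 fold change of 3.41 ± 0.40 (adjusted p = 4.17e-05), or 1.67 ± 0.45 relative to hepatocyte markers (adjusted p = 0.00228), exceeded that of every other tested member. It rests on 31 counts in all, and 90.5% of its 50-base stretches also occur in another gene. Gsta4, which conjugates 4-hydroxynonenal, was at 1.92 and 0.14.

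The mu class ranged widest among the Gst classes with more than 2 tested genes. Gstm1, the abundant mu-class enzyme of liver, had 11285 and 11097 counts when fasted against 10974 and 10781 when not (1.99 ± 0.02, adjusted p = 5.97e-12, and 0.22 ± 0.02 relative to hepatocyte markers, adjusted p = 3.97e-07). The other 6 genes were lower relative to hepatocyte markers, from Gstm7 at -0.51 to Gstm5 at -2.02, as were 90.2% of all tested genes. Gstm5 had 73 and 84 against 365 and 356 counts, with log2 fold changes of -0.25 ± 0.12 (adjusted p = 0.0756) under median of ratios and -2.02 ± 0.11 (adjusted p = 4.31e-11) relative to hepatocyte markers. Gstm2 had 314 and 294 against 832 and 799 counts (0.53 and -1.25), and Gstm3 had 200 and 164 against 458 and 449 (0.64 and -1.14). In these 3 genes every fasted library was far below every non-fasted one in counts. Scaled to total counts Gstm5 was lower (-0.75, adjusted p = 0.000204) and Gstm2 and Gstm3 did not pass the test (adjusted p = 0.73 and 0.222).

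Of the smaller classes, the omega class was low relative to hepatocyte markers and the zeta and kappa classes were not. Gsto1, which reduces dehydroascorbate and arsenic compounds, had 1477 and 1452 counts when fasted against 2470 and 2454 when not, a log2 fold change of 1.204 ± 0.03 (adjusted p = 8e-10), or -0.57 ± 0.03 relative to hepatocyte markers (adjusted p = 7.67e-11). Gsto2 had 0 and 0 against 71 and 72 counts, so that it was at least 12.5-fold lower in the fasted group under median of ratios and 42.2-fold relative to hepatocyte markers. Gstz1, the maleylacetoacetate isomerase of tyrosine breakdown, had 10035 and 10222 against 9376 and 9139 counts (2.08 ± 0.03 and 0.31 ± 0.03). Gstk1, the kappa-class enzyme of mitochondria and peroxisomes, had 1338 and 1338 against 1372 and 1380 (1.91 and 0.14). In the theta class Gstt1 had 2725 and 2678 against 3208 and 3090 counts (1.73 and -0.04, the second with adjusted p = 0.18), Gstt2 had 993 and 966 against 892 and 918 (2.07 and 0.29), and Gstt3 was at 1.324 and -0.45. Gstt4, with 0 and 0 against 5 and 6 counts, was not tested. In counts and relative to hepatocyte markers, Gstm2, Gstm3, Gstm5, Gsto1, Gsto2 and the Gstp genes were higher in the non-fasted libraries, as were the summed markers of trophoblast, decidua, cholangiocytes and stellate cells, whose part in these results was not tested. Under median of ratios Gstm2, Gstm3, Gsto1 and the Gstp genes were higher in the fasted libraries instead.

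Only 3 of 66 promoters of 55 members with a RefSeq promoter held the letters of the antioxidant response element core, TGACNNNGC on either strand (4.55%, against 12.4% of all 32851 promoters of the same length). This element is bound by NRF2, which drives many Gst genes. The matches were in Gsta3, 121 bases before the start site, Gstm5 (42 before) and Gstm7 (129 before). Gsta3 and Gstm5 are shown because both hold the letters and lie far apart in the comparison relative to hepatocyte markers (-0.02 and -2.02). They run from 250 bases before to 50 bases after the start, with the match in capitals, from RefSeq GRCm38.p6, a build earlier than that of the counts, at chr1:21240335-21240634 and chr3:107895604-107895903, both on the plus strand.
Gsta3: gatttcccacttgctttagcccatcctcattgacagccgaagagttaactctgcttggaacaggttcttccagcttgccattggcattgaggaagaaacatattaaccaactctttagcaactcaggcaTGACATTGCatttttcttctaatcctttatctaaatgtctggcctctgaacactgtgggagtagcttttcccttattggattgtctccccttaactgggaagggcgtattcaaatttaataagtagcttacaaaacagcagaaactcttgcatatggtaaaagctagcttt
Gstm5: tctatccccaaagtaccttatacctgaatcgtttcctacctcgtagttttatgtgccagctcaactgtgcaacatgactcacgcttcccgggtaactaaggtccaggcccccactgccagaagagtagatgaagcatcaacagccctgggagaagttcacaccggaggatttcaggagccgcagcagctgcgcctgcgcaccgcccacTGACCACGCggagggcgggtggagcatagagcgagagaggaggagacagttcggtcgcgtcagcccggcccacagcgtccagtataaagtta
The STAT5 letters TTCNNNGAA were in 4 of the 66 (6.06%, against 8.3% of all), those of Gsta1, Gstm6, Sult3a1 and Ugt1a6a. The motifs HNF1, DR1 and DR4 were in none, and in 3, 13 and 5 of all promoters. All were searched on both strands, and DR1 and DR4 both repeat AGGTCA, 1 and 4 bases apart. A match is only a run of letters, and the absence of one says nothing of the factor.

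Within a family the makeup does not depend on the scaling. In the Ugt family Ugt2b5 took 22.8% and 22.5% of the counts when fasted against 20.2% and 20.2% when not, while Ugt2b1 took 17.6% in both fasted and 19.1% in both non-fasted libraries. In the Gst family Gstp1 took 33.9% in both fasted libraries and 39.1% and 39.6% in the non-fasted ones, Gsta3 26.4% and 26.6% against 24.98% and 24.9%, and Gstm1 13.6% and 13.4% against 10.9% and 10.7%. In the Sult family Sult2a8 took 77.5% and 77.7% against 55.7% and 55.9%, and Sult1e1 0.0143% and 0.00944% against 26.8% and 26.7%. With Sult1e1 left out, Sult2a8 was at 77.6% and 77.7% against 76.2% and 76.3%, and Sult1a1 at 9.65% and 9.53% against 9.20% and 9.23%. Each of these shares differed between the groups without overlap, but 2 libraries against 2 cannot give an exact permutation p below 0.333.

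**Figure D4:**
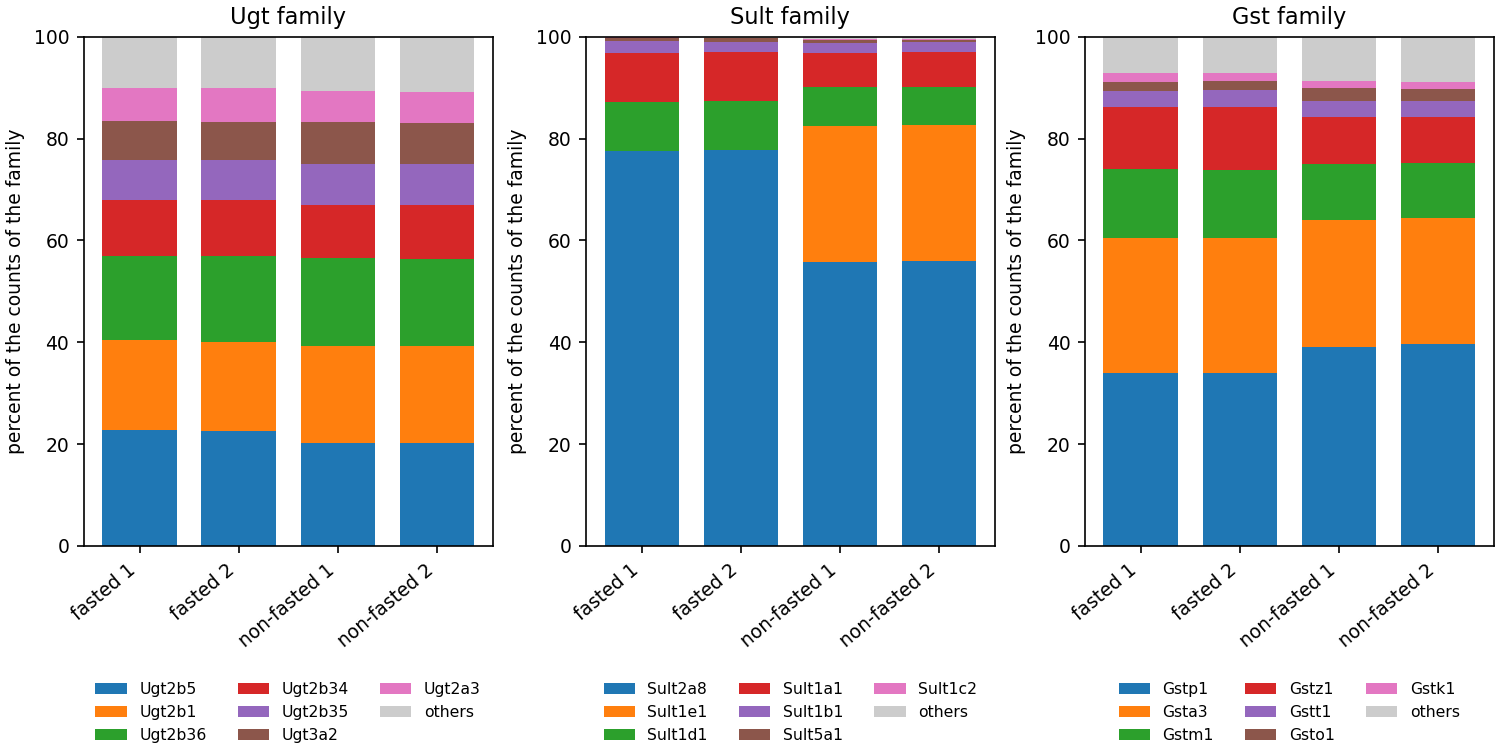
Percent of the counts of the Ugt, Sult and Gst families held by their 7 most abundant members and by the others, in each of the 4 libraries. Libraries of a group are alike, Sult1e1 appears in the non-fasted bars alone at 26.8% and 26.7%, and the Gstp1 share is 33.9% in the fasted and 39.1% to 39.6% in the non-fasted bars.

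Genes that supply the cosubstrates, and other partners, were counted in the same way. For these genes too, food and the placental RNA of the non-fasted libraries cannot be told apart, and the part of placental RNA was not tested. Their counts stand beside 37.2% of all tested genes higher and 45% lower under median of ratios, and 4.56% higher and 90.2% lower relative to hepatocyte markers, so that a list wholly or mostly lower on the second measure is near the share of all genes. Of 7 genes of UDP-glucuronic acid supply 5 were higher and 2 lower under median of ratios (relative to hepatocyte markers 2 and 5). Ugp2, which makes UDP-glucose and was the most abundant, had 7085 and 6832 against 11061 and 10804 counts (1.30 and, relative to hepatocyte markers, -0.48). Of 7 genes of PAPS supply 5 were higher and 2 lower under median of ratios, and all 7 were lower relative to hepatocyte markers, where 90.2% of all genes were. The PAPS synthase of liver, Papss2, had 1780 and 1773 against 5176 and 5079 counts (0.42 and -1.35), and its paralog Papss1 had 102 and 120 against 921 and 895 (-1.08 and -2.85).

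Of 13 genes of glutathione supply 11 were higher, 1 lower and 1 not past the test under median of ratios, and 5 were higher and 6 lower relative to hepatocyte markers. Mat1a, which makes S-adenosylmethionine in liver, had 52450 and 51532 against 26957 and 26506 counts (2.91 and 1.14), and cystathionine lyase Cth had 8914 and 8952 against 6852 and 6884 (2.33 and 0.56). Gclc, the catalytic subunit of the first step of glutathione synthesis, was at 7484 and 7456 against 6264 and 6099 counts and 0.45 relative to hepatocyte markers, while its modifier Gclm was at 0.07 (adjusted p = 0.0763). The cystine carrier Slc7a11 had 0 and 0 against 43 and 60. Mercapturate steps, which process glutathione conjugates further, had 4 genes higher and 5 lower of 10 tested under median of ratios, and 9 lower relative to hepatocyte markers, again near the 90.2% of all genes. Ggt1, the gamma-glutamyl transferase, had 1 and 1 counts against 4355 and 4143.

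Of 9 exporters of conjugates 4 were higher and 4 lower under median of ratios (3 and 6 relative to hepatocyte markers). Abcc2 and Abcc3, which move glucuronides into bile and blood, had 5731 and 5826 against 4448 and 4378 counts (2.34 and 0.57), and 6225 and 6116 against 4102 and 4115 (2.54 and 0.76), and Abcc5 had 63 and 59 against 5459 and 5518 (-4.54 and -6.31). Of 6 glucuronidases and sulfatases 1 was higher and 3 lower under median of ratios, and all 6 were lower relative to hepatocyte markers, as were 90.2% of all genes, among them Sulf2 at 161 and 171 against 6324 and 6401 counts. All 7 genes of APAP oxidation were higher under median of ratios, and 5 were higher and 2 lower relative to hepatocyte markers. Cyp2e1, the main oxidase of APAP, had 121355 and 121431 against 71143 and 69700 counts, a log2 fold change of 0.96 relative to hepatocyte markers, where Ugt1a6a was at -0.03, Sult1a1 at 0.31 and Gstp1 at -0.32. Cyp2e1 was the highest of the 7, which ranged down to -1.26 with a median of 0.13. The medians of tested members were 0.21 (Ugt), -0.03 (Sult) and -0.45 (Gst) on the same measure.

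Of 12 tested transferases of other kinds 8 were higher and 3 lower under median of ratios (3 and 8 relative to hepatocyte markers). Mgst1, the microsomal glutathione transferase, had 60091 and 60623 against 62634 and 63040 counts, more than any member (1.90 and 0.12), whereas Mgst2 had 0 and 0 against 94 and 95. Of 19 regulators 14 were higher and 4 lower under median of ratios (7 and 10 relative to hepatocyte markers). The receptor CAR (Nr1i3), a known activator of Ugt1a1, had 2793 and 2625 against 638 and 684 counts (3.99 and 2.21), and Maff, a partner of NRF2, had 40 and 29 against 5073 and 5063 (-5.24 and -7.02). Hnf4a, the most abundant on the list, had 9139 and 9158 against 8606 and 8411 (2.06 and 0.28). Of 7 other NRF2 targets 5 were higher and 2 lower under median of ratios (2 and 4 relative to hepatocyte markers): Nqo1 had 88 and 103 against 111 and 105 counts (1.77 and 0.00), Ephx1 had 7402 and 7145 against 4843 and 4841 (2.54 and 0.76), and Hmox1 had 242 and 246 against 5659 and 5494 (-2.56 and -4.34).

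**Figure D5:**
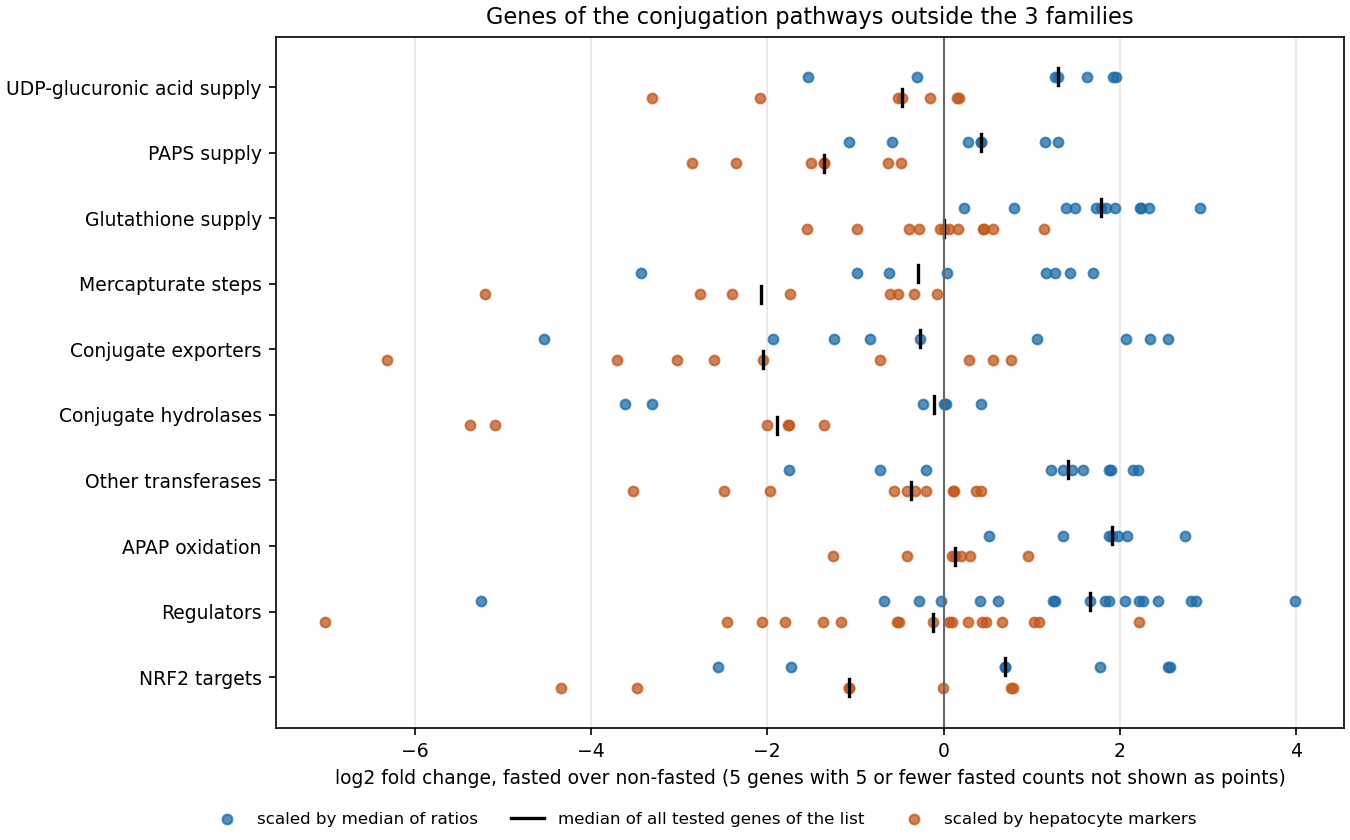
Log2 fold changes between fasted and non-fasted libraries of the tested genes of 10 lists of pathway partners (rows) under median-of-ratios (blue) and hepatocyte-marker scaling (orange), with a bar at the median of each list; 5 genes with 5 or fewer fasted counts enter the medians but are not drawn. APAP oxidation and glutathione supply have medians of 0.13 and 0.00 relative to hepatocyte markers, and those of PAPS supply, mercapturate steps, exporters and hydrolases, at -1.35 to -2.07, lie around the median of all tested genes, -1.91.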

How the data were processed

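The authors deposited raw read counts per gene (Entrez identifiers) for each library, with no normalization. Their processing notes name Trimmomatic, STAR, featureCounts, FastQC, MultiQC and DESeq2 1.32.0, with GRCm39. Strand and the handling of multi-mapping or overlapping reads: not given in the sources used here. Names came from RefSeq (GRCm38.p6). 1904 identifiers had none. Coding and exon sequences came from GENCODE, matched by symbol for all 63 members, and served for sequence comparison and length only.

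edgeR 4.0.16 in R 4.3.3 was applied to the counts (quasi-likelihood test, two-sided, filterByExpr defaults, median-of-ratios scaling, Benjamini-Hochberg over all tested genes at 0.05), limma 3.58.1 and DESeq2 1.42.0. Standard errors were back-calculated from the F statistic. edgeR's deviance is inexact for abundant genes, and computing it exactly changed no call of a tested member. The method was tested on simulated data in which most genes were unchanged, so that test does not bear on the choice of scaling. Within a group the libraries differed by a mean squared deviation of 1.12 (fasted) and 1.13 (non-fasted) per gene, where counting error alone gives 1 (chi-square p = 3.9e-21 and 3.8e-32 over 13348 and 17211 genes), and over the members by 0.938 and 1.05. Intervals cover counting error only.

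The members, lists and tests were chosen with earlier results of these data known. Named with counts are, per subfamily, the most abundant member, those with the largest rise and fall, those against their subfamily and a list of genes of APAP clearance, and per partner list the largest changes and the most abundant gene. Ugt1a5, Ugt2b34, Ugt2b38, Gsta2, Gsta4, Gstm2, Gstm3, Gstm7, Gstt3, Gstt4, Sult1b1, Sult1c2, Sult2a7, Gstp-ps and some partners were named after their values were seen.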

Additional observations from a re-analysis of the deposited data

How the results depend on the processing

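Alternatives by median of ratios were TMM, upper quartile, total-count and hepatocyte-marker scaling, no filter, a mean of at least 10 CPM, DESeq2, limma-voom, a minimum fold of 2, coefficients of variation of 0.2 and 0.4, exact deviance, thinning to equal totals, a replicate block and leaving out each library. Chosen after seeing the data were hepatocyte markers without Alb, crossed replicate numbers, and hepatocyte-marker scaling with exact deviance, with a coefficient of variation of 0.2 or without each library. Only hepatocyte-marker scaling turned a direction among the 47 tested members. It reversed 19 to Gsta3 -0.0164, Gstm2 -1.25, Gstm3 -1.14, Gstm4 -0.59, Gstm6 -0.61, Gstm7 -0.51, Gsto1 -0.57, Gstp1 -0.32, Gstp2 -0.61, Gstp3 -0.69, Gstt1 -0.0447, Gstt3 -0.45, Sult1c2 -0.0275, Sult2a7 -0.0375, Sult5a1 -0.14, Ugt1a10 -0.40, Ugt1a5 -0.99, Ugt1a6a -0.0348 and Ugt1a9 -0.26. Without Alb among the markers these were, in that order, at -0.0488, -1.28, -1.17, -0.62, -0.64, -0.54, -0.61, -0.35, -0.65, -0.72, -0.0771, -0.49, -0.0597, -0.0697, -0.17, -0.44, -1.02, -0.0672 and -0.29, and Sult1b1 was at -0.0049. Under hepatocyte-marker scaling without 1 library, Sult1b1 ranged from -0.0378 to 0.0899, Sult1c2 from -0.30 to 0.30, Sult2a7 from -0.29 to 0.18 and Sult5a1 from -0.30 to 0.0456.

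Members called were 21 higher and 17 lower by hepatocyte markers, and 20 and 19 without Alb. With Alb kept and a coefficient of variation of 0.2 they were 4 and 10. By median of ratios 1 was lower at a mean of at least 10 CPM, which leaves 34 tested. Partner genes, 64 higher and 26 lower by median of ratios, were 27 and 63 by hepatocyte markers, and 27 and 64 without Alb. With Alb kept and a coefficient of variation of 0.2, 9 were higher by hepatocyte markers. By median of ratios the lower calls of partner genes were 16 at 10 CPM and 14 with a minimum fold of 2. At a coefficient of variation of 0.4, 41 higher and 14 lower remained in count under that scaling. All genes higher numbered 3550 by total counts (22.9%, and 62.7% lower), 706 by hepatocyte markers (250 with a coefficient of variation of 0.2), 658 without Alb, 2273 with a minimum fold of 2, and 3714 and 1648 at coefficients of variation of 0.2 and 0.4. All genes lower numbered 13959 by hepatocyte markers, 14046 without Alb, 4046 at 10 CPM, 3990 with a minimum fold of 2 and 3691 at a coefficient of variation of 0.4. Ratios of fasted to non-fasted summed counts were 2.91 (Ugt), 2.11 (Sult) and 2.25 (Gst) of the library and 1.205, 0.873 and 0.930 of the hepatocyte markers, and per exon length Ugt2b5, Sult2a8 and Gstp1 took 26.4%, 67.4% and 45.9% of their families in the fasted libraries. Causes were not tested. Without 1 library 41 members were higher and 3 to 4 lower.

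The replicate block left 42 members higher and 4 lower, and crossed numbers the same counts. The replicate numbers do not mark a shared animal or batch in the labels, and deviations of same-numbered libraries had a correlation of -0.00297 over 15470 genes, so they share only a number.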
